A study of Mus musculus with 18 samples.

Results

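The genes described here are the 10 mouse genes that encode the subunits of the transcription factor NF-κB (Nfkb1, Nfkb2, Rel, Rela and Relb) and its IκB-family inhibitors (Nfkbia, Nfkbib, Nfkbid, Nfkbie and Nfkbiz). They were chosen by name, as members of the 2 gene families, and no measured value entered the rule, although earlier results of these data were known when the set was proposed. All 10 were found among the 45706 genes listed for each library and passed the filter on low counts with 12255 tested genes. Their messenger RNA was measured by sequencing of poly-A selected, strand-specific libraries from cultured CD8+ T cells. In CD8+ T cells NF-κB works downstream of the T cell receptor and of costimulatory receptors: a kinase complex marks the IκB proteins for degradation and releases dimers of Rela, Rel and the Nfkb1 product into the nucleus, while the slower non-canonical branch processes the Nfkb2 product and acts through Relb. Nfkbia, Nfkbib and Nfkbie encode the classical cytoplasmic inhibitors, and Nfkbid and Nfkbiz encode atypical members that bind subunits in the nucleus. All are called inhibitor genes here by family, which does not say that each product only inhibits. Several of these genes are themselves textbook targets of NF-κB.

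The cells were OT-I cells, which carry a transgenic T cell receptor for an ovalbumin peptide, and all libraries were labelled as wild-type OT-I in the strain entry. Cells received 10 ng/ml of the peptide daily for 5 days with IL-15 and IL-7 (repeat peptide stimulated, the in vitro exhaustion condition), or received it once for 48 h before it was washed out (single peptide stimulated). From day 5 to day 8 each culture was kept with 1 µM ibrutinib, a covalent inhibitor of the kinase BTK, or with the solvent DMSO. This gave 5 libraries of single peptide stimulated cells with DMSO, 4 with ibrutinib, 4 libraries of repeat peptide stimulated cells with DMSO and 5 with ibrutinib. The libraries came from 6 experiments, named A to F here after the genotype entry of the labels (INHB-1 left over, btk KO-6, BTK KO-1, BTK KO-3, btk KO-5 and PKC igoni-2, in this order). Experiments A to D held 1 library of every group, experiment E only a repeat ibrutinib library and experiment F only a single DMSO library. The entries of experiments B to E name a btk knockout although the strain entry and the study's description of this RNA sequencing do not, so they were read as names of experiments; whether these cells carried btk could not be settled, and the differences within experiment A are given beside the called members. The labels do not say whether the libraries of an experiment came from separate animals, so the p-values measure the spread between these cultures.

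Library totals ran from 23445922 to 51995372 estimated counts (median 27420966), and the members lay far above the counting floor, with the lowest group mean at 511 normalized counts for Nfkbid. The labelled cell type was borne out by its defining markers: the 6 CD8+ T cell markers (Cd3e, Cd3d, Cd3g, Cd8a, Cd8b1 and Trac) summed to between 2734 and 4063 TPM in every library. Single markers moved within this sum. With DMSO, Cd8b1 had means of 819 TPM in single and 321 TPM in repeat cells, and Cd3g 576 and 1065 TPM. With ibrutinib these means were 944 and 344 TPM for Cd8b1 and 601 and 878 TPM for Cd3g. B cell markers (6 genes) summed to between 1.06 and 7.10 TPM, myeloid markers (6 genes) to between 0.56 and 9.18 TPM, and 3 of the 4 red cell markers were at 0 in all libraries. The 5 dendritic cell markers summed to at most 1.23 TPM in single peptide stimulated cells and to between 34.0 and 107 TPM in repeat cells with DMSO, of which Batf3, also made by activated T cells, gave up to 105 TPM while Flt3, Xcr1 and Siglech stayed at or below 0.11 TPM. The 4 CD4+ T cell markers summed to between 2.08 and 12.5 TPM in single and between 5.38 and 21.4 TPM in repeat peptide stimulated cells, with Cd4 itself at or below 0.17 TPM. In single cells Foxp3 of this list gave up to 5.55 TPM with DMSO and up to 8.49 TPM with ibrutinib. Of the CD4+ T cell list, Zbtb7b gave a mean of 17.7 of 18.8 TPM in repeat cells with DMSO. With ibrutinib in repeat cells it gave 11.9 of 12.5 TPM. The 3 NK cell markers summed to between 4.65 and 40.7 TPM, mostly Eomes and Klrb1c. The study lists Eomes among the transcription factors changed in T cell exhaustion, so Eomes is not specific to NK cells. The part of any of these levels in the results below was not tested, and in bulk RNA fewer cells of a kind and less RNA per cell cannot be told apart.

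The promoters of the members are shown before the values because several of them hold the letters that NF-κB itself binds. RefSeq windows from 250 bases before to 50 bases after a transcript start (build GRCm38.p6) were found for 7 of the 10 members, 11 windows in all, and were searched on both strands for the κB consensus, for the AP-1 motif TGANTCA and for the NFAT core GGAAA. At least 1 κB match lay in a window of 5 of these 7 genes (Nfkb2, Rel, Nfkbia, Nfkbid and Nfkbie), against 5.14% of the 27025 genes with such a window. The 250 bases before the start are printed for Nfkb2, Rel and Nfkbia, which hold matches, and for Rela, which holds none, 5′ to 3′ on the strand of the gene, with κB matches in capitals. They are chr19:46304487-46304736 (plus strand) for the first of 3 Nfkb2 starts, chr11:23770970-23771219 (minus strand) for Rel, chr12:55492648-55492897 (minus strand) for Nfkbia and chr19:5637291-5637540 (plus strand) for Rela.
Nfkb2: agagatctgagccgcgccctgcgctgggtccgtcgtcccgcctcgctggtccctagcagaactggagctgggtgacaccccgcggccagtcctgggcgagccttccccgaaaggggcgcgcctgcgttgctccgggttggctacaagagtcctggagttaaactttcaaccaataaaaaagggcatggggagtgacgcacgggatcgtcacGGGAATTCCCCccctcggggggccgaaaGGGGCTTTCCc
Rel: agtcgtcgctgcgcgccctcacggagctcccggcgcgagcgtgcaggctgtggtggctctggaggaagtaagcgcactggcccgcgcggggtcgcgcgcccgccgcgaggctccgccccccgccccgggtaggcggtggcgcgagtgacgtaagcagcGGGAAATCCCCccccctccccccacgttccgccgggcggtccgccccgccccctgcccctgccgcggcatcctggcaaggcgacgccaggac
Nfkbia: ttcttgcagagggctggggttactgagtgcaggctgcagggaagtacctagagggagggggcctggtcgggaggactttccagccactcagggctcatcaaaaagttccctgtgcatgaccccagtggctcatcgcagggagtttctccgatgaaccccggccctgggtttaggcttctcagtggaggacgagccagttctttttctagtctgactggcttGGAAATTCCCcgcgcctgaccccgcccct
Rela: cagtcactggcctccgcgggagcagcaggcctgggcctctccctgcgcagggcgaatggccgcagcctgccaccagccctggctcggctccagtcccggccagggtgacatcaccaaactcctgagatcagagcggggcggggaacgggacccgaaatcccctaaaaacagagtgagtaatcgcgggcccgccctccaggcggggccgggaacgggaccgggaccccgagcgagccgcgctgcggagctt

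In the Nfkb2 window the 3 matches began 39, 38 and 11 bases before the start, and the first pair overlap. The Rel window had a similar overlapping pair 92 and 91 bases before its start, and the Nfkbia window had 1 match 29 bases before its start. The other Nfkb2 windows had 2 matches and 1 match. These Nfkb2 windows overlap, and 1 match lies in both and is counted in each. Of the 3 Nfkbid windows 1 had 2 matches. The Nfkbie window had 1 match, while the Rela and Nfkbib windows had none. AP-1 matches lay in 1 Nfkb2 window and in the Nfkbie window (8.97% of all genes had one), and the NFAT core is so short that 64.4% of all genes had a match. The matches are letters in a window and do not show that a factor was bound in these cells.

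Levels are compared between genes only in TPM, a share of all transcripts of a library that is corrected for transcript length. In single peptide stimulated cells with DMSO, Nfkb1 had the highest mean level at 128 ± 20.1 (SD, n = 5) TPM, followed by Nfkbia at 86.8 ± 32 (SD, n = 5) TPM and Rela at 64.5 ± 11.8 (SD, n = 5) TPM. Nfkbib, Nfkb2 and Relb stood at 46.8 ± 8.55 (SD, n = 5), 32.7 ± 5.62 (SD, n = 5) and 29.1 ± 4.41 (SD, n = 5) TPM. Nfkbiz, Nfkbie, Nfkbid and Rel formed the low end, with Rel at 7.53 ± 2.65 (SD, n = 5) TPM. The ranges of every pair of neighbours in this order overlapped except those of Relb (22.3 to 32.7 TPM) and Nfkbiz (12.7 to 20.9 TPM).

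In repeat peptide stimulated cells with DMSO the order of the means differed only at the low end. Nfkb1 reached 224 ± 8.06 (SD, n = 4) TPM and its lowest library lay above the highest library of every other member. Rel stood at 16.7 ± 4.25 (SD, n = 4) TPM, above Nfkbie, Nfkbid and Nfkbiz in the order of means, and Nfkbiz was now the lowest at 10.2 ± 2.18 (SD, n = 4) TPM. The 5 subunit genes summed to 262 ± 42.7 (SD, n = 5) TPM in single and 384 ± 13.9 (SD, n = 4) TPM in repeat cells with DMSO. Nfkb1 gave the largest part of this difference, with means of 128 and 224 TPM. Nfkb2 (32.7 and 56.15 TPM) and Rel (7.53 and 16.7 TPM) were also higher in repeat cells by their means. Rela (64.5 and 60.9 TPM) and Relb (29.1 and 26.9 TPM) were lower. The 5 inhibitor genes summed to 180.4 ± 42 (SD, n = 5) TPM in single and 172 ± 27.9 (SD, n = 4) TPM in repeat cells with DMSO. With ibrutinib, the subunit sum was 218 ± 50.9 (SD, n = 4) TPM in single and 338 ± 77 (SD, n = 5) TPM in repeat cells, and the inhibitor sum 166 ± 32.7 (SD, n = 4) and 173 ± 29.6 (SD, n = 5) TPM.

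**Figure D1:**
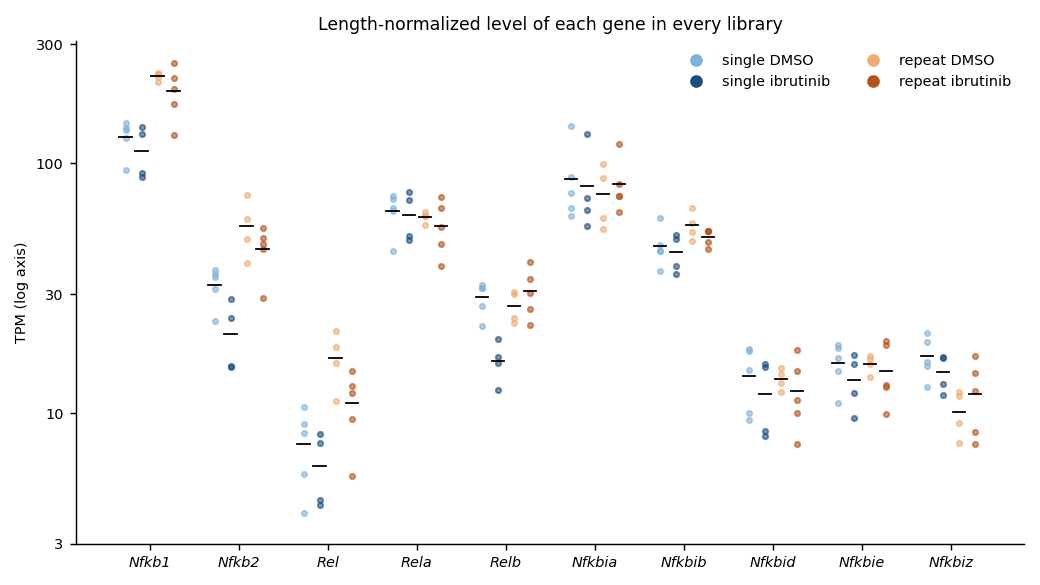
Level of each gene in TPM on a log axis; points are the 18 libraries in 4 groups and black lines are group means. Nfkb1 lies highest in all groups by its mean, and Rel and the 3 inhibitor genes Nfkbid, Nfkbie and Nfkbiz lie lowest.

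TPM values also carry the make-up of the whole library. In repeat cells with ibrutinib, Nfkb1 stood at 130 TPM in experiment E and 252 TPM in experiment B, but at 10496 and 13029 normalized read counts. Comparisons between groups therefore rest on counts normalized by the trimmed mean of M-values (TMM) in edgeR's quasi-likelihood test over all 12255 genes, and a gene was called changed when its Benjamini-Hochberg adjusted p was below 0.05, its mean normalized count was at least 50 and its log2 fold change was beyond 0.2 in either direction.

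Repeat against single peptide stimulation with DMSO addressed how the exhaustion culture alone moved the NF-κB genes. Rel, Nfkb1 and Nfkb2 rose and Nfkbiz and Rela fell, so 5 of 10 members were called, 3 higher and 2 lower, where 47.1% of all tested genes were called. Of the 5 subunit genes 4 were called, and of the 5 inhibitor genes 1. The median log2 fold change was -0.16 over the 10 members and 0.63 over the subunit genes, beside -0.00 over all tested genes. A share of members near that of all genes is not a result about the set, and the members are described one by one. Batf3, Cd8b1, Cd3g and the CD4+ T cell list, mostly Zbtb7b in repeat cells, moved with this comparison too, by the values given above. Foxp3 of the CD4+ T cell list went the other way, with means of 1.79 TPM in single and 0.0375 TPM in repeat cells. The NK cell sum went from between 20.8 and 38.0 TPM in single to between 4.65 and 15.8 TPM in repeat cells. Eomes, which is not specific to NK cells, had means of 27.6 and 2.45 TPM there. Klrb1c of the same list went the other way, with means of 1.48 and 6.03 TPM. Ncr1 had means of 0.314 and 0.0075 TPM. The part of these markers in the results was not tested.

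Rel (chr11:23736847-23770970, minus strand, build GRCm38 as all gene coordinates here) encodes c-Rel, the subunit most tied to lymphocyte activation. In single cells with DMSO its normalized read counts were 1802, 1543, 1201 and 930.3 in experiments A to D and 1677 in experiment F. In repeat cells with DMSO they were 3334, 2118, 3178 and 2849.8 in experiments A to D. Every repeat library lay above every single library. Rel was 2.01-fold higher in repeat cells (log2 fold change 1.00, SE 0.19, adjusted p = 0.000249), and higher in all 4 experiments that held both groups, by 0.46 to 1.61 on the log2 scale and by 0.89 in experiment A.

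Nfkb1 (chr3:135584655-135691547, minus strand) encodes the precursor of the p50 subunit. Its normalized read counts were 8114, 8507, 8773 and 7335 in experiments A to D and 8665 in experiment F in single cells with DMSO. In repeat cells with DMSO they were 12056, 13809, 13091 and 12711 in experiments A to D, again with no overlap. The 1.56-fold difference (log2 fold change 0.64, SE 0.09, adjusted p = 1.05e-05) lay between 0.57 (experiment A) and 0.79 on the log2 scale in all 4 experiments, the narrowest spread of the called members that rose.

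Nfkb2 (chr19:46304320-46312385, plus strand), whose product is the precursor of the p52 subunit of the non-canonical branch, had normalized read counts of 2439.5, 2541, 2813 and 2094 in experiments A to D and 2211 in experiment F in single cells with DMSO. The repeat cells with DMSO gave 2994, 2865, 3919.9 and 5164 in experiments A to D. The groups did not overlap, but experiment D stood above the other repeat libraries. Nfkb2 was 1.54-fold higher (log2 fold change 0.63, SE 0.15, adjusted p = 0.00195), with log2 differences of 0.30 in experiment A, 0.17 in experiment B and 1.3 in experiment D.

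Nfkbiz (chr16:55811375-55838899, minus strand), which encodes the nuclear IκB-family protein IκBζ, moved the other way. The normalized read counts in single cells with DMSO were 1273, 1784, 1863 and 1367 in experiments A to D and 1310 in experiment F. In repeat cells with DMSO they were 849, 789, 941 and 587 in experiments A to D, all below every single library. It was 1.92-fold lower in repeat cells (log2 fold change -0.94, SE 0.21, adjusted p = 0.00092) and lower in all 4 experiments, by 0.58 on the log2 scale in experiment A.

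Rela (chr19:5637483-5648130, plus strand) encodes the main transactivating subunit of the canonical branch and fell by 0.24 on the log2 scale (SE 0.09, adjusted p = 0.0359) from 4140.4 ± 403 (SD, n = 5) to 3513 ± 226 (SD, n = 4) normalized read counts. Its groups overlapped, and although it was lower in all 4 experiments, the log2 difference was -0.34 in experiment A and -0.04 in experiment D. The call was lost in 11 of 27 alternative analyses, among them those without experiment C (adjusted p = 0.17), with only experiments A to D (0.0744) and those without any 1 of 7 individual libraries (repeat DMSO A, C or D, single DMSO A, B, C or F).

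The other members were not called. Relb, the transactivating subunit of the non-canonical branch, stood at 1485 ± 184 (SD, n = 5) normalized read counts in single and 1213 ± 197 (SD, n = 4) in repeat cells with DMSO (log2 fold change -0.29, SE 0.13, adjusted p = 0.0768), and it passed only without the repeat DMSO library of experiment D (-0.36, adjusted p = 0.0478). The classical inhibitor genes Nfkbib and Nfkbie and the atypical Nfkbid had log2 fold changes of 0.12, -0.16 and -0.17, with overlapping groups and adjusted p between 0.292 and 0.457. Nfkbia (chr12:55489410-55492647, minus strand), which encodes the main inhibitor IκBα, had a log2 fold change of -0.39 (SE 0.32, adjusted p = 0.312).

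The Nfkbia values were set apart by 1 experiment. In single cells with DMSO the normalized read counts were 2233, 2832, 5071 and 2508 in experiments A to D and 2073 in experiment F. With ibrutinib, single cells had 2242, 1950.2, 5473 and 2274 in experiments A to D. Experiment C lay above every other library of its group in both, and it was also the highest of both repeat groups, at 2876 with DMSO and 3738 with ibrutinib. With the experiment as a replicate block in the fit, which compares libraries within experiments, Nfkbia fell in repeat cells with DMSO (log2 fold change -0.45, adjusted p = 0.0187); without experiment C in the unblocked fit it was not called.

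**Figure D2:**
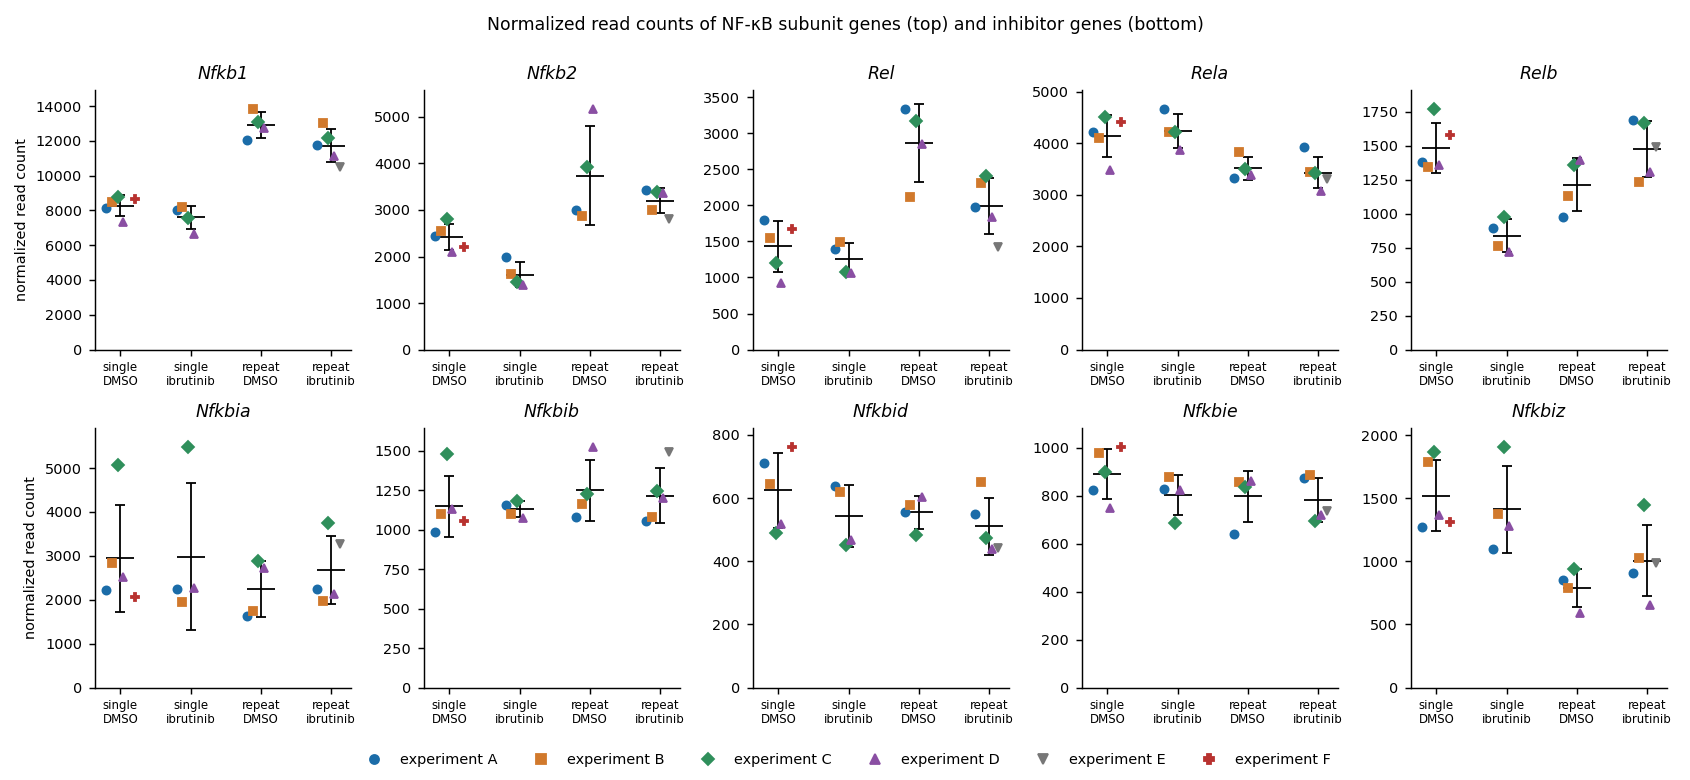
Normalized read counts (axes from 0) of the subunit genes in the upper and inhibitor genes in the lower row, by group; symbols are experiments, and the black lines give the mean and 1 SD. The repeat libraries of Nfkb1 lie above all single libraries, Nfkbiz with DMSO lies lower in repeat cells, and experiment C lies highest for Nfkbia in all 4 groups.

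Ibrutinib against DMSO in single peptide stimulated cells, the control culture that no longer received peptide, called 2 of 10 members, both lower, beside 3.04% of all tested genes. Both belong to the non-canonical branch, of which the kinase gene Map3k14 (log2 fold change 0.20) and the adaptor gene Traf3 (-0.15) were not called here. The normalized read counts of Relb (chr7:19606217-19629438, minus strand) were 1379, 1346, 1768 and 1358 in experiments A to D and 1576 in experiment F with DMSO. With ibrutinib they were 894, 761, 978 and 720 in experiments A to D. The lowest DMSO library lay above the highest ibrutinib library, and Relb was 1.77-fold lower (log2 fold change -0.83, SE 0.14, adjusted p = 0.00402). It was lower in all 4 experiments, by 0.62 on the log2 scale in experiment A and by up to 0.91 in experiment D. Relb kept its call in all 27 alternative analyses, but these leave out a log2 threshold of 1, which it did not pass. Of the marker lists, the NK cell sum moved with this comparison. It went from between 20.8 and 38.0 TPM with DMSO to between 10.9 and 15.6 TPM with ibrutinib. Almost all of it was Eomes, which is not specific to NK cells, while the defining marker Ncr1 was at or below 1.16 TPM. The part of this sum in the result was not tested.

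Nfkb2 had the single DMSO values given above and, in single cells with ibrutinib, normalized read counts of 1985, 1632, 1452 and 1381 in experiments A to D, with no overlap. Its 1.5-fold lower level (log2 fold change -0.59, SE 0.15, adjusted p = 0.0441) was close to the threshold. Nfkb2 was lower in all 4 experiments, by 0.30 on the log2 scale in experiment A and by 0.95 in experiment C, and without experiment C it was not called (-0.48, adjusted p = 0.365). It was called in 16 of 27 alternative analyses, and in 9 of the 18 that left out 1 library; it was lost without single DMSO A, B or C, single ibrutinib B, C or D, repeat DMSO C, or repeat ibrutinib C or D, and with all gene types.

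No other member was called in this comparison. The largest of the remaining log2 fold changes were -0.20 for Nfkbid and -0.19 for Rel, each with overlapping groups. Nfkbid was nevertheless lower with ibrutinib in all 4 experiments, by 0.06 to 0.15 on the log2 scale, and Nfkb1 by 0.02 to 0.22. Rela and Nfkbib differed by 0.03 and -0.03 on the log2 scale, each with SE 0.13 or less. The median log2 fold change of the 10 members was -0.14, beside 0.01 over all tested genes.

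In repeat peptide stimulated cells, where peptide stayed in the culture, ibrutinib called 0 of 10 members beside 5.92% of all tested genes. DESeq2's Wald test also called 0, and 2 members had an unadjusted p below 0.05 in edgeR's test. These were Rel and Relb. The dendritic cell list moved with ibrutinib in repeat cells, from between 34.0 and 107 TPM with DMSO to between 1.31 and 33.7 TPM, almost all of it Batf3 (means of 56.7 and 11.1 TPM), and its part in these values and in those of the pathway genes below was not tested. With ibrutinib the normalized read counts of Rel were 1976, 2313, 2411 and 1839 in experiments A to D and 1429 in experiment E, beside the repeat DMSO values above. Rel had a log2 fold change of -0.53 (SE 0.19, adjusted p = 0.108) and was lower in experiments A, C and D and higher by 0.13 in experiment B. Its ranges overlapped only through the DMSO library of experiment B.

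For Relb the normalized read counts in repeat cells with DMSO were 976, 1128, 1355 and 1394 in experiments A to D. With ibrutinib they were 1692, 1234, 1669 and 1304 in experiments A to D and 1491 in experiment E. The log2 fold change was 0.28 (SE 0.13, adjusted p = 0.23), and the difference ranged from 0.79 in experiment A to -0.10 in experiment D. Nfkbiz was higher with ibrutinib in all 4 experiments, by 0.10 to 0.61 on the log2 scale, but its estimate of 0.34 (SE 0.20) did not pass the test (adjusted p = 0.347). The other members had log2 fold changes between -0.22 (Nfkb2) and 0.25 (Nfkbia).

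The difference between the ibrutinib changes in repeat and in single cells was tested directly as an interaction. Of 10 members 1 was called, Relb, beside 1.26% of all tested genes. Its ibrutinib change was 1.11 higher on the log2 scale in repeat cells (SE 0.19, 2.16-fold, adjusted p = 0.00507), and the difference was 1.42, 0.95, 1.15 and 0.82 in experiments A to D. The call held in all 26 alternative analyses, at values from 1.02 to 1.21. Nfkbiz also had a positive difference in all 4 experiments, at 0.45 on the log2 scale, but was not called (adjusted p = 0.63). For Nfkb2 the difference was 0.36 and was not called (adjusted p = 0.58), so its lower level with ibrutinib in single cells was not shown to differ from the change in repeat cells.

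**Figure D3:**
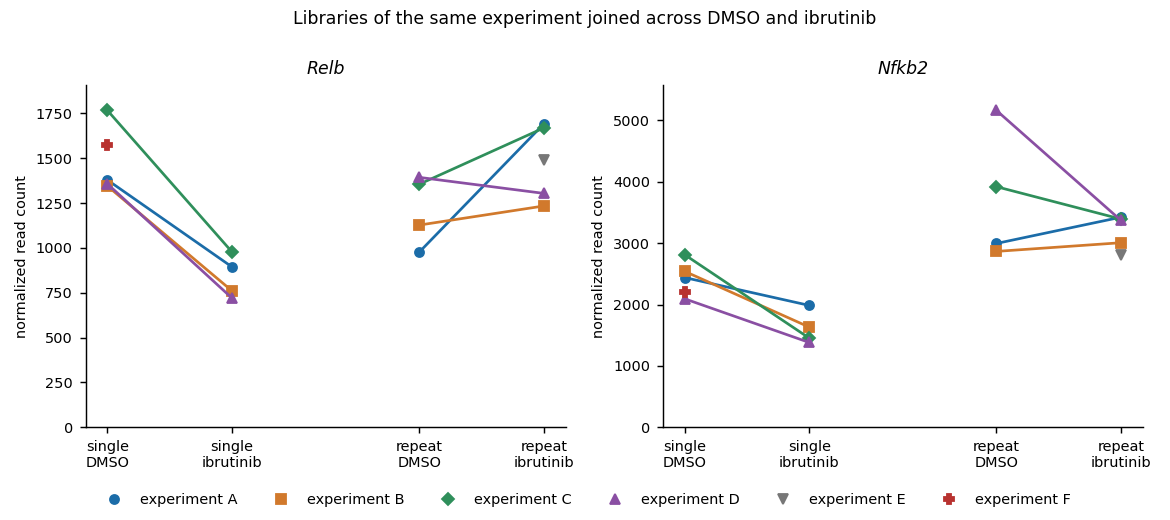
Normalized read counts (axes from 0) of Relb and Nfkb2; lines join the DMSO and ibrutinib libraries of 1 experiment within single and within repeat peptide stimulated cells. Relb is lower with ibrutinib in all 4 experiments of single cells and in 1 of 4 of repeat cells, and Nfkb2 is lower in all 4 experiments of single cells.

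Repeat against single stimulation under ibrutinib called 5 of 10 members, 4 higher and 1 lower, beside 38.4% of all tested genes. All 5 subunit genes were called and 0 of the 5 inhibitor genes; by unadjusted p below 0.05 the inhibitor count was 1, and DESeq2's Wald test gave 5 called members in all. This comparison uses the same ibrutinib libraries as the ones above, so its values for Relb and Nfkb2 are not separate evidence. Nfkb1 was 1.54-fold higher in repeat cells (log2 fold change 0.63, SE 0.09, adjusted p = 2.43e-05), Nfkb2 1.98-fold (0.99, SE 0.16, adjusted p = 6.02e-05) and Relb 1.76-fold (0.82, SE 0.14, adjusted p = 0.000112), none of them with overlapping groups. In experiment A alone the log2 differences were 0.56 for Nfkb1, 0.79 for Nfkb2, 0.92 for Relb, 0.51 for Rel and -0.25 for Rela.

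Rel was 1.59-fold higher (log2 fold change 0.67, SE 0.19, adjusted p = 0.0096), with 1056 to 1490.3 normalized read counts in single and 1429 to 2411 in repeat cells with ibrutinib, and it was not called without experiment C (0.53, adjusted p = 0.0898). Rela was lower by 0.31 on the log2 scale (SE 0.09, adjusted p = 0.0114), from 4234 ± 326 (SD, n = 4) to 3429 ± 309 (SD, n = 5) normalized read counts, and was not called without the single ibrutinib library of experiment A (adjusted p = 0.0849) or without experiment C (0.0545). Nfkbiz was lower in all 4 experiments but not called (log2 fold change -0.49, SE 0.20, adjusted p = 0.0562); with the experiment as a replicate block it was called (-0.51, adjusted p = 0.00241), as it was without experiment C (-0.48, adjusted p = 0.0494). The other 4 inhibitor genes lay between -0.16 (Nfkbia) and 0.10 (Nfkbib) on the log2 scale.

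**Figure D4:**
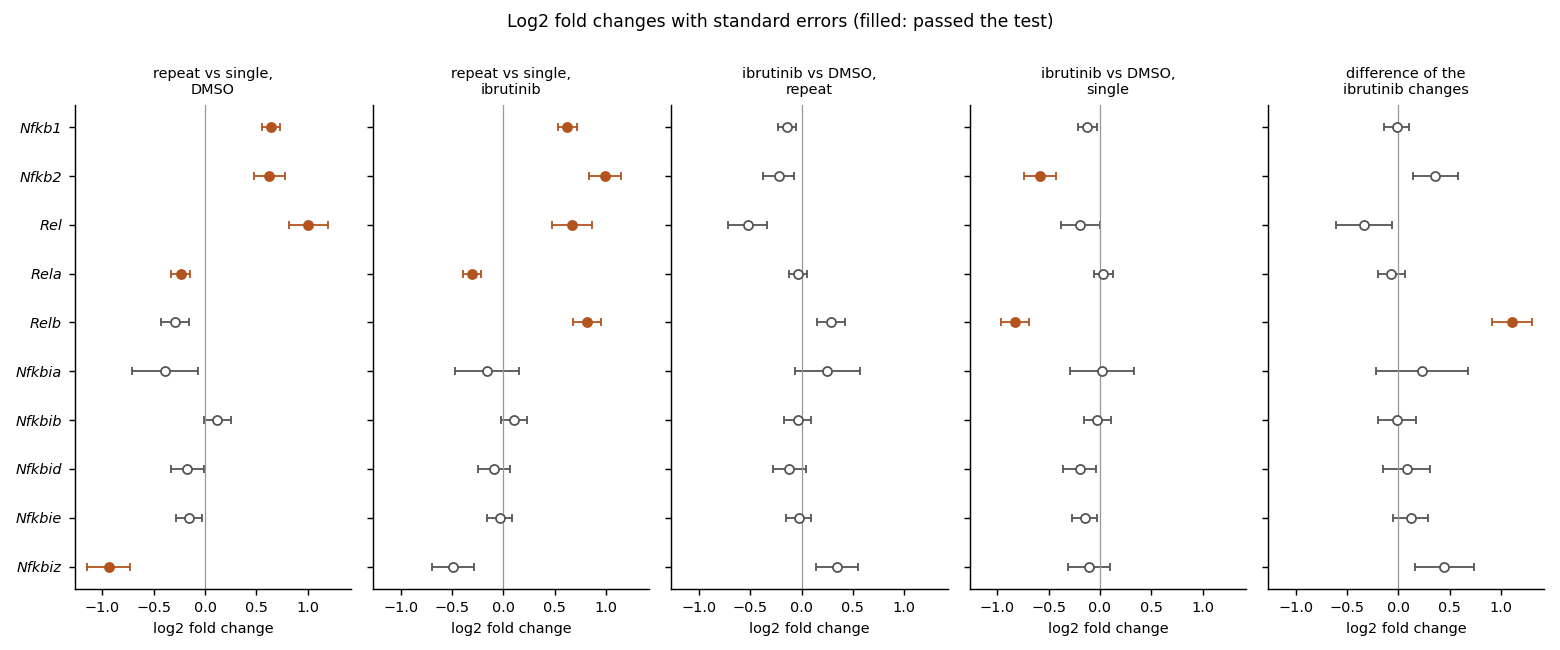
Log2 fold changes of the 10 genes in each comparison, with bars of 1 standard error; filled points passed the test. The repeat against single changes of Nfkb1, Nfkb2 and Rel lie right of 0 with DMSO and with ibrutinib, and Relb is the filled point in the difference of the ibrutinib changes.

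Genes were also compared by log2 CPM, counts scaled to the library size after TMM. Those that ran most like a member over the 18 libraries were named by the smallest root mean square difference after centring each gene. For each of the 10 members the nearest of 12254 other tested genes was not another member, which says little because so few of these genes are members. The nearest member ranked from 72 (for Nfkb2) to 2514 (for Nfkbib) among these genes. The nearest gene was Cblb for Rel (0.15 on the log2 scale), Pelo for Nfkb1 (0.10), Mthfd2 for Nfkb2 (0.19), Wars for Relb (0.21), Laptm5 for Rela (0.08) and Slc2a9 for Nfkbiz (0.22). Among members, Nfkb1 was the nearest to both Nfkb2 (0.27) and Rel (0.30). Relb was nearest to Nfkbib among members at 0.36, about as far as its own root mean square spread of 0.37. The libraries share groups and experiments, so these distances are descriptions.

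The kinase complex and the adaptors that link receptors to NF-κB (24 genes, all tested) were also counted. With DMSO, 14 were lower and 1 higher in repeat cells, so 15 of 24 were called beside 47.1% of all tested genes, with a median log2 fold change of -0.32 beside -0.00. Ikbkb, the catalytic IKKβ subunit that marks IκB proteins for degradation, fell from 9944 ± 2182 (SD, n = 5) to 3603 ± 483 (SD, n = 4) normalized read counts (log2 fold change -1.46, SE 0.18, adjusted p = 3.10e-06). Ikbkg, the scaffold subunit of the same complex, was lower by 0.58 on the log2 scale (adjusted p = 0.000122), whereas Chuk, the IKKα subunit, differed by -0.03 (adjusted p = 0.81). Of the receptor-proximal genes, Prkcq, which encodes PKCθ, fell by 0.69 on the log2 scale (adjusted p = 1.83e-06), while Bcl10 and Malt1, whose products act together downstream of the T cell receptor, were not called (log2 fold changes of 0.09 and 0.30).

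Map3k14, which encodes the kinase NIK of the non-canonical branch, was lower by 0.56 on the log2 scale (adjusted p = 0.000314), as was Traf3, the adaptor that holds NIK low, by 0.66 (adjusted p = 0.00138). Ikbke, an IKK-related kinase, was lower by 1.31 (adjusted p = 1.43e-07). Map3k7, which encodes TAK1, was the 1 gene called higher (log2 fold change 0.41, adjusted p = 0.000482). Under ibrutinib, repeat cells had 9 of the 24 lower and 1 higher than single cells, beside 38.4% of all tested genes called in either direction, with Ikbkb at -0.98 and Tab2 the gene that rose (0.40).

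In repeat cells ibrutinib called 2 of the 24, both higher, a share near the 5.92% of all tested genes: Ikbke rose from 2173 to 3160 mean normalized read counts (log2 fold change 0.54, SE 0.12, adjusted p = 0.0122) and Prkcq from 7647 to 9306 (0.28, SE 0.08, adjusted p = 0.042). In single cells edgeR's test called 0 of 24 (3.04% of all tested genes), and 4 had an unadjusted p below 0.05. The interaction called Map3k8, the kinase TPL2 that binds the Nfkb1 precursor, at 0.74 on the log2 scale (SE 0.18, adjusted p = 0.0454), positive in all 4 experiments.

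**Figure D5:**
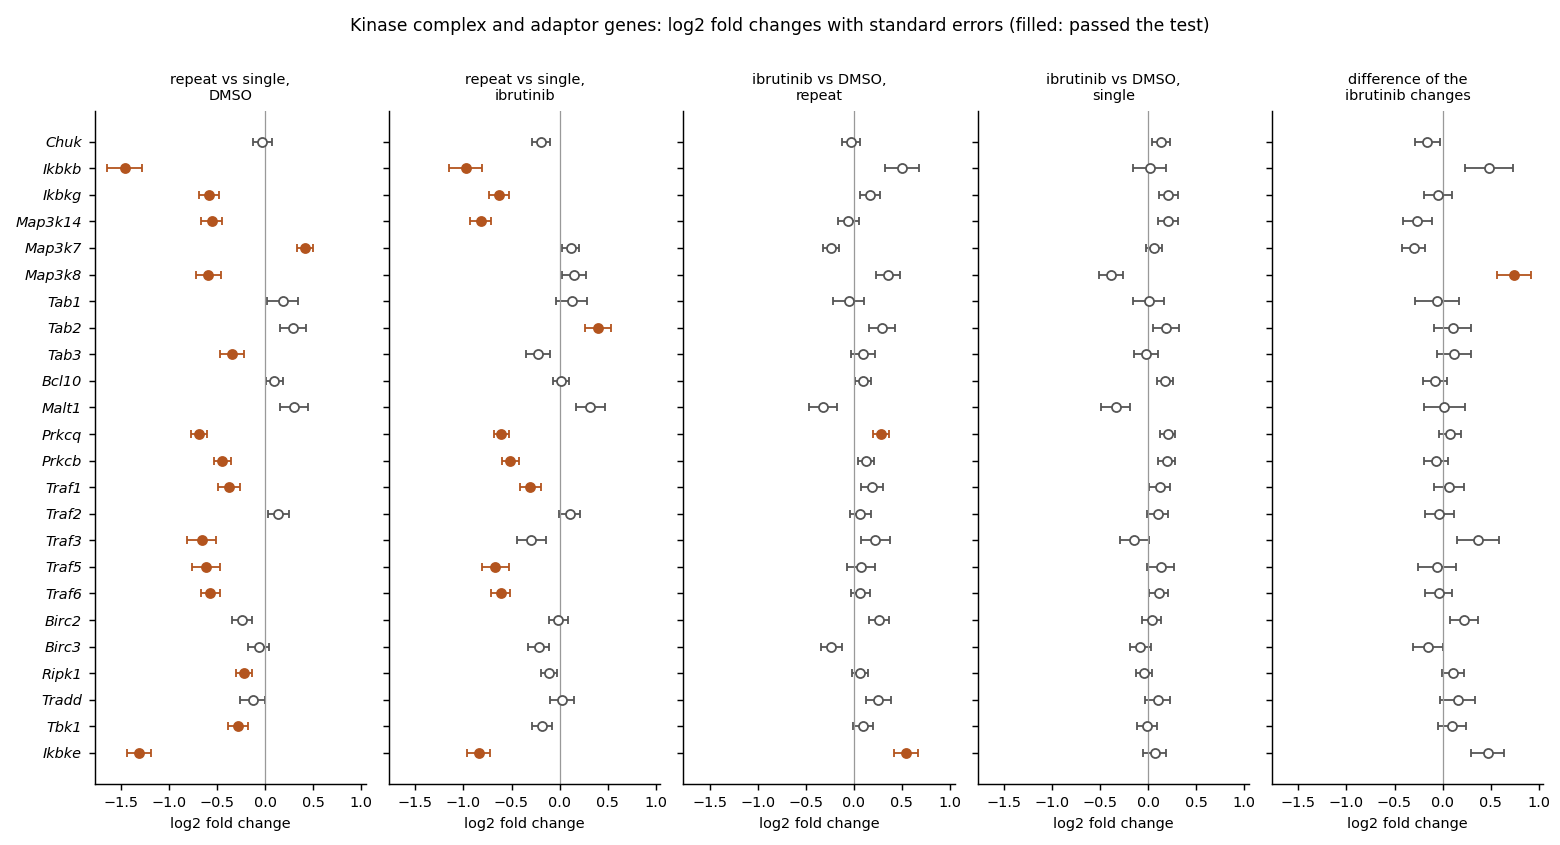
Log2 fold changes of 24 kinase complex and adaptor genes in each comparison, with bars of 1 standard error; filled points passed the test. In repeat against single cells with DMSO 14 filled points lie left of 0 and 1 right of it; with ibrutinib these are 9 and 1.

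Among 20 brakes and other regulators of the pathway, 6 were higher and 4 lower in repeat than in single cells with DMSO, a called share near the 47.1% of all tested genes. Ibrutinib called 2 of the 20 in repeat cells and 2 in single cells, all lower, beside 5.92% and 3.04% of all tested genes. The interaction called 2, 1 higher and 1 lower, beside 1.26%. Fbxw11, part of the ligase that marks IκB for degradation, rose by 0.82 on the log2 scale (adjusted p = 2.88e-07) and fell by 0.32 with ibrutinib in repeat cells (adjusted p = 0.0248). With ibrutinib in single cells its log2 fold change was 0.17 and not called. In the interaction Fbxw11 was called at -0.49 (adjusted p = 0.0441), negative in all 4 experiments. Tnip3, an inhibitor that binds the A20 protein, was higher in repeat cells with DMSO by 1.38 (adjusted p = 0.000438) and lower with ibrutinib in repeat (-0.98, adjusted p = 0.0403) and in single cells (-1.13, adjusted p = 0.0424). Tnfaip3, which encodes A20, passed the test in none of the comparisons, with log2 fold changes between -0.68 and 0.62.

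Bcl3, an atypical nuclear IκB-family gene counted among these 20, moved with ibrutinib in single cells as Relb did. Its mean was 428 ± 113 (SD, n = 5) normalized read counts with DMSO and 206 ± 63.0 (SD, n = 4) with ibrutinib, with overlapping groups (log2 fold change -1.05, SE 0.23, adjusted p = 0.0161). The interaction was 1.41 on the log2 scale (SE 0.32, adjusted p = 0.0328) and positive in all 4 experiments, from 0.83 in experiment B to 1.65 in experiment C.

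Of 37 commonly listed NF-κB target genes that are not members, 34 were tested (Il2, Ccnd1 and Vcam1 were not). With DMSO 13 were higher and 10 lower in repeat cells, so 23 of 34 were called beside 47.1% of all tested genes, with a median log2 fold change of 0.35. The receptor Tnfrsf9 (4-1BB) rose from 684 to 8696 mean normalized read counts (log2 fold change 3.67, adjusted p = 1.18e-07) and Irf4, a factor induced by T cell receptor signals, from 969 to 5193 (2.42, adjusted p = 1.46e-08), while Irf1 fell by 1.54 on the log2 scale and Icam1 by 0.76. The survival genes Bcl2a1b and Bcl2a1d had log2 fold changes of 4.57 and 5.05, but as close copies of each other they may share reads.

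Ibrutinib moved 6 of the 34 in repeat cells, 2 higher and 4 lower, beside 5.92% of all tested genes. Ltb, which encodes lymphotoxin β, rose by 1.24 on the log2 scale and Irf1 by 0.77, and Irf4, Il2ra, Cd83 and Ifng fell by 1.3, 0.96, 1.74 and 1.78. In single cells 9 were called beside 3.04% of all tested genes, all lower, among them Tnf (-1.15, adjusted p = 0.00655), Cd274, which encodes PD-L1 (-0.88, adjusted p = 0.00185), and the chemokine gene Ccl4, from 58.8 to 7.09 mean normalized read counts. Ccl3 was also called there, at 66.6 with DMSO and 1.45 mean normalized read counts with ibrutinib, which is too near 0 for a fold change. The interaction called 5 of the 34 beside 1.26% of all tested genes, all higher: Irf1 (1.47) and Cd274 (1.25) with Ccl3, Ccl4 and Bcl3, which is counted in both lists.

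Of 13 TNF receptor superfamily and costimulatory receptor genes 11 were tested, and all 11 were called between repeat and single cells with DMSO, 5 higher and 6 lower, beside 47.1% of all tested genes. Cd28 rose by 0.87 on the log2 scale, Tnfrsf18 (GITR) by 0.82 and Tnfrsf4 (OX40) by 4.60, and Tnfrsf14 (HVEM) fell by 1.57. With ibrutinib in repeat cells Tnfrsf14 and Tnfrsf13c, the BAFF receptor that signals to the non-canonical branch, were higher by 0.70 and 1.13 on the log2 scale (adjusted p = 0.00439 and 0.0122), and the interaction called Tnfrsf14 (0.79, adjusted p = 0.0457). In single cells 1 of 11 was called beside 3.04% of all tested genes, Tnfrsf9, which was lower by 2.02 on the log2 scale (adjusted p = 0.00592).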

How the data were processed

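RNA of 18 cultures was sequenced as poly-A selected, strand-specific paired-end libraries. Per the labels and the study's methods the authors trimmed reads with Trim Galore, aligned them to mouse build GRCm38 and deposited, for each gene of a library, RSEM 1.3.1 expected counts and TPM; TPM are relative to all genes of a library. Expected counts were rounded. The 27903 protein-coding and lncRNA genes of GENCODE M21 held 98.5% of the counts on average, and 12255 passed edgeR's low-count filter. Tests used R 4.3.3 and edgeR 4.0.16 (TMM, robust glmQLFit and glmQLFTest), with all 18 libraries of the 4 groups in 1 fit, no block, and Benjamini-Hochberg adjustment over all tested genes. Normalized counts are scaled to the mean effective library size.

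Libraries of the same experiment, paired by the genotype entry of the labels, deviated together from their group means (24 pairs, correlation 0.16 to 0.494, median 0.325; 97 other pairs, median -0.076), so a fit with the experiment as a replicate block was an alternative; the lone libraries of experiments E and F add nothing to the comparisons there. Others were DESeq2 1.42.0 (Wald test, and its size factors), no low-count filter, no threshold on the mean count, a log2 threshold of 1, all gene types, an effective length offset, only the groups compared, and leaving out each library. Fits without experiment C and with experiments A to D only were added after seeing the data. Members were named in all comparisons and other pathway genes by lists; members and lists were chosen with earlier results of these data known. One listed gene is not reported here. Library totals limit only low genes; no counting interval was needed for the members.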

Additional observations from a re-analysis of the deposited data

Results flagged for a closer look

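Of 40 combinations of a member and a group that were examined for 1 library standing apart (Dixon's test at the 95% level), 4 were flagged, where chance alone flags about 1 in 20. Experiment C held 3 of them: Nfkbia at 5071 normalized read counts in single cells with DMSO (the other libraries 2073 to 2832), Nfkbia at 5473 in single cells with ibrutinib (the others 1950 to 2274) and Nfkbib at 1482 in single cells with DMSO (the others 986 to 1128). The fourth was Nfkbie in repeat cells with DMSO, where experiment A had 639.7 (the others 837 to 862). The ibrutinib change of Relb differed between repeat and single cells, by 1.11 on the log2 scale (adjusted p = 0.00507 in edgeR's test of the interaction, positive in all 4 experiments). The cause of these values was not tested.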

How the results depend on the processing

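The alternatives gave 1340 log2 fold changes of members, of which 1251 kept direction and side of the threshold, 25 lost and 6 gained a call, and 58 changed sign, all of values that were not called. Apart from the stricter log2 threshold, Relb was called with its sign in single cells with ibrutinib and in the interaction under every alternative run. The same held for Nfkb1, Nfkb2, Rel and Nfkbiz in repeat against single cells with DMSO. With a log2 threshold of 1, 1 member was called in repeat against single cells with DMSO, 0 with ibrutinib in single cells and 0 in repeat against single cells with ibrutinib. With all gene types, and without experiment C, 1 member was called with ibrutinib in single cells, and over the fits leaving out 1 library each this count ran from 1 to 2.

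The experiment as a replicate block gave 6, 0, 2, 6 and 1 called members (repeat against single with DMSO, ibrutinib in repeat, ibrutinib in single, repeat against single with ibrutinib, interaction) and changed no other call than those of Nfkbia and Nfkbiz given above. Over all tested genes it called 1694, 1118 and 679 with ibrutinib in repeat cells, in single cells and in the interaction, beside 726, 373 and 154. The DESeq2 Wald test called 1114, 602 and 339 there, the fit without experiment C 405, 179 and 58, and the fit of only the groups compared 464 and 181 with ibrutinib. A log2 threshold of 1 left 1994, 237, 202, 1461 and 114, in the order of the comparisons above. Leaving out 1 library gave 356 to 874, 131 to 460 and 89 to 171 in the 3 ibrutinib comparisons, and without a block experiments A to D alone gave the member counts 4, 0, 2, 5 and 1.

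Sign changes concerned these values. Nfkbia with ibrutinib in single cells was -0.004 with DESeq2 size factors and in its Wald test, -0.134 with the block, -0.082 in experiments A to D and -0.162 without experiment C, which also gave 0.059 for Nfkbib there, 0.033 for Nfkbie with ibrutinib in repeat cells and 0.159 for Nfkbia in repeat against single cells with ibrutinib. In the interaction Nfkbib was 0.005 with DESeq2 size factors, 0.007 with no filter and 0.004 in the Wald test, and Nfkb1 was 0.003 with no filter, 0.002 with the block and 0.004 in experiments A to D. Leaving out 1 library, the ranges with ibrutinib in repeat cells were -0.075 to 0.019 for Rela, -0.12 to 0.082 for Nfkbib and -0.12 to 0.02 for Nfkbie. In single cells they were -0.031 to 0.065 for Rela, -0.46 to 0.31 for Nfkbia and -0.076 to 0.082 for Nfkbib. Between repeat and single cells with ibrutinib they were -0.31 to 0.34 for Nfkbia, -0.17 to 0.021 for Nfkbid and -0.084 to 0.037 for Nfkbie. In the interaction they were -0.055 to 0.049 for Nfkb1, -0.10 to 0.01 for Rela, -0.056 to 0.72 for Nfkbia and -0.12 to 0.12 for Nfkbib. The cause of these shifts was not tested.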
